A study of Mus musculus with 6 samples.

Results

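The unconventional myosins Myo1c, Myo1d, Myo1e, Myo1f and Myo1g (class I), Myo5a (class V), Myo9a and Myo9b (class IX), Myo18a (class XVIII) and Myo19 (class XIX) were examined in follicular B cells with and without myosin IIa. They were taken by gene name from the comparison table deposited for the study, in which these 10 genes hold 13 of 25017 entries. The table has 20458 gene names. Follicular B cells, gated as B220+AA4.1-CD23+CD21lo, were sorted from C57BL/6 mice and their RNA was sequenced after amplification. The genotypes were CD23Cre+Myh9wt/fl (3 samples) and CD23Cre+Myh9fl/fl (3 samples). Both genotypes carry the CD23Cre transgene, which is driven by the promoter of Fcer2a and deletes a LoxP-flanked exon of Myh9 from splenic transitional B cells onward, on 1 allele in wt/fl cells and on both in fl/fl cells. The comparison group thus lacks 1 copy of Myh9 itself and is no wild-type control, and the age of these mice is not given in the labels.

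The authors pooled the 3 samples of a genotype into 1 value per entry, in FPKM, a fragment count corrected for transcript length and for sequencing depth. An entry stands for the transcripts of a gene that share a coding sequence. With 1 pooled value per genotype there is no spread between mice, so differences are described by their size and were not tested. Throughout, the log2 difference is log2(FPKM + 1) in fl/fl minus that in wt/fl, which understates the change of genes near 0. For comparisons over genes, the entries of a gene were summed and a mean of at least 1 FPKM over both genotypes was required, which 9866 genes met.

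Myosins are motors that move along actin filaments with energy from ATP. The motor domain at the front binds actin and ATP, the neck binds calmodulin or other light chains, and the tail sets what the motor carries or holds. Class II myosins, such as myosin IIa, assemble into filaments and contract. Unconventional myosins do not form such filaments. Class I myosins are single-headed and bind membrane lipids through the tail, so they link the plasma membrane and vesicles to cortical actin. Class V myosins are processive dimers that carry vesicles and other cargo. Class IX myosins have a GTPase-activating domain in the tail that switches off RhoA. Myo18a has a motor domain with little or no ATPase activity and links the Golgi to actin, whereas Myo19 sits on the outer mitochondrial membrane.

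All of these motors have a nucleotide-binding loop in the motor domain. The coding bases of this loop are shown in capitals, with 12 coding bases on either side in lower case. They set the 10 members and Myh9 side by side at the site where ATP is bound. The sequences were read in the coding direction from GENCODE M21 transcripts. Positions are on GRCm38, and the span holds an intron where a pair of exons is named.
Myo1c (chr11:75658410-75658457, plus strand, exon 4): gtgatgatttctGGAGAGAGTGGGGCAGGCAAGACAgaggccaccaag
Myo1d (chr11:80685909-80692893, minus strand, exons 2 and 3): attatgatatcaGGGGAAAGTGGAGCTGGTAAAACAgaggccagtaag
Myo1e (chr9:70301777-70316628, plus strand, exons 4 and 5): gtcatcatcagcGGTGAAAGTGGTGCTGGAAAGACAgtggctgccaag
Myo1f (chr17:33576697-33578129, plus strand, exons 4 and 5): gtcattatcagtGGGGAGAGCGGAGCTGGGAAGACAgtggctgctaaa
Myo1g (chr11:6518793-6518991, minus strand, exons 2 and 3): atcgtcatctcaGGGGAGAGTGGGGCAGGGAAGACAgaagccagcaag
Myo5a (chr9:75129991-75130038, plus strand, exon 5): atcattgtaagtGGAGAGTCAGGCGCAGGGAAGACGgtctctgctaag
Myo9a (chr9:59780316-59780363, plus strand, exon 2): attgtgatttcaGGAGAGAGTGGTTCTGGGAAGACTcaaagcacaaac
Myo9b (chr8:71290999-71291046, plus strand, exon 2): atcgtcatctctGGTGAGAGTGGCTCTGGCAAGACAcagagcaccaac
Myo18a (chr11:77818689-77818736, plus strand, exon 5): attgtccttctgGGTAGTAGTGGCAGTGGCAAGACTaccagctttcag
Myo19 (chr11:84888135-84892090, plus strand, exons 5 and 6): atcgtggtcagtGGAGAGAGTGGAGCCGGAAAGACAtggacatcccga
Myh9 (chr15:77796018-77797011, minus strand, exons 4 and 5): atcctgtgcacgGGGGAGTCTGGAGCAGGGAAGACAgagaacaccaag
The loop spans 24 bases in each gene and codes for 8 residues. It was located by a pattern that fixes the first glycine and the later glycine and lysine, and requires threonine or serine at the end. Part of the agreement in residues was therefore set in advance. All 8 residues equal those of Myh9 in the 5 class I members, Myo5a and Myo19. In Myo9a and Myo9b 7 of the 8 residues were the same, and in Myo18a 6 were. At the level of bases, Myo1g was closest to Myh9 with 21 of 24 equal, and Myo18a was farthest with 12. The proteins are of very different size, from 963 residues in Myo19 and 1024 in Myo1g to 1855 in Myo5a and 2631 in Myo9a for the isoform of each gene whose bases are shown.

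Myh9, the deleted gene, was at 50.6 FPKM in wt/fl compared with 21.1 FPKM in fl/fl cells, a log2 difference of −1.22, and 0.304% of the 9866 genes were at least as far from 0. All 12 markers of B cells and follicular B cells had a mean above 1 FPKM, including Cd79a (1098 and 1115 FPKM) and Cr2 (177 and 198 FPKM). Of these markers, 0 were past a log2 difference of 0.5 in either direction, beside 3.45% of the 9866 genes. The FPKM of the whole table summed to 595296 in wt/fl against 596105 in fl/fl. The read depth behind the values is unknown. Values as low as 7.62e-08 FPKM in wt/fl versus 1.2e-07 FPKM in fl/fl are estimates in which fragments were divided among transcripts, and whole reads cannot be read from them.

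The class I myosins Myo1g, Myo1e and Myo1c were the most abundant of the group, while Myo1f and Myo1d were among its lower members. Myo1g, a myosin largely restricted to blood cells that sits at the plasma membrane of lymphocytes, had 65.7 FPKM in wt/fl compared with 66.5 FPKM in fl/fl cells (chromosome 11 from 6406550 to 6420961; these gene positions are given as in the table, on mm9). It was the highest of the 27 myosin heavy chain genes examined in both genotypes, and its fl/fl value was 101% of the wt/fl value. Myo1e (chromosome 9 from 70055156 to 70247874), a long-tailed class I myosin that acts with dynamin and actin at sites of endocytosis, had 55.3 FPKM in wt/fl against 60.3 FPKM in fl/fl cells. This is 109% of the wt/fl level and a log2 difference of 0.12, and 44.8% of all genes differed by at least as much.
Myo1c (chromosome 11 from 75465010 to 75488136) tethers membranes to actin and takes part in the recycling of lipid rafts and receptors. Summed over its entries, Myo1c had 49.5 FPKM in wt/fl versus 44.2 FPKM in fl/fl cells, a log2 difference of −0.16. In absolute level this was the largest difference on the lower side among the members, −5.29 FPKM, but 33.9% of all genes were at least as far from 0 on the log2 scale.
Myo1f (chromosome 17 from 33692651 to 33744709), the second long-tailed class I myosin and a gene of myeloid cells, had 5.91 FPKM in wt/fl compared with 7.30 FPKM in fl/fl cells. Its log2 difference of 0.27 was the largest of the group, and 15.3% of all genes differed by at least as much. Myo1d (chromosome 11 from 80295628 to 80593527), a short-tailed class I myosin known for setting left-right asymmetry, was low in both genotypes, with 1.09 and 0.807 FPKM. Its mean of 0.948 FPKM was just under the required 1 FPKM, so Myo1d was left out of counts over genes. The member just above that minimum was Myo19, with a mean of 2.61 FPKM.
Both long-tailed class I members, Myo1e and Myo1f, were higher in fl/fl, and together they had 61.2 FPKM in wt/fl against 67.6 FPKM in fl/fl, whereas the short-tailed Myo1c, Myo1d and Myo1g together had 116 and 112 FPKM. Among the short-tailed genes Myo1g was slightly higher and Myo1c and Myo1d were lower, and the lower sum came from Myo1c. Over all genes 50.5% were higher in fl/fl by any amount. With 2 long-tailed and 3 short-tailed genes, no difference between these subclasses can be read from the sums. The 5 genes summed to 177 FPKM in wt/fl versus 179 FPKM in fl/fl cells.

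**Figure D1:**
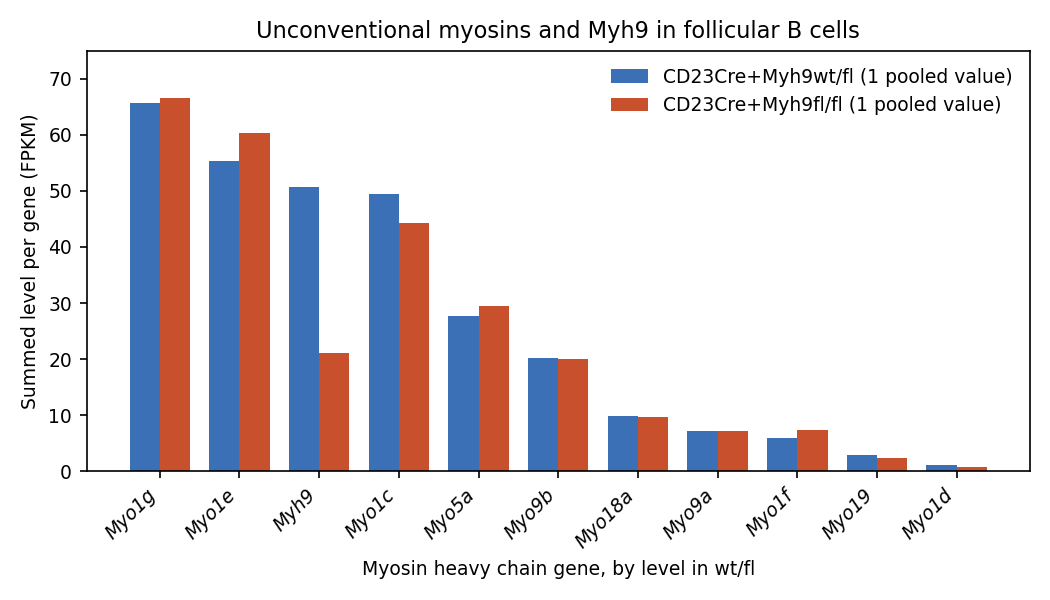
Level of each listed unconventional myosin and of Myh9, summed per gene, in FPKM on a linear axis from 0. Blue bars are the pooled wt/fl value and red bars the pooled fl/fl value, with no error bar because each genotype has 1 value. Myh9 drops from 50.6 to 21.1 FPKM and lies below Myo5a in fl/fl, whereas the pairs of bars of the other genes are of similar height.

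Myo5a (chromosome 9 from 74919012 to 75071494), the motor that carries melanosomes and secretory vesicles and ties organelles to cortical actin, had 27.6 FPKM in wt/fl compared with 29.4 FPKM in fl/fl cells, a log2 difference of 0.087. The class IX myosins were close to equal between genotypes. Myo9a (chromosome 9 from 59598980 to 59776673) had 7.26 and 7.13 FPKM. Myo9b (chromosome 8 from 73796612 to 73884611), the RhoA-inactivating myosin of immune cells that is needed for the migration of macrophages and T cells, had 20.1 FPKM in wt/fl against 20.0 FPKM in fl/fl cells. Its summed log2 difference of −0.0058 was the smallest of the group in size, and 97.4% of all genes were at least as far from 0.
Myo18a (chromosome 11 from 77590766 to 77679482) had 9.84 FPKM in wt/fl versus 9.60 FPKM in fl/fl cells, a log2 difference of −0.032. Myo19 had 2.81 FPKM in wt/fl compared with 2.41 FPKM in fl/fl cells, which is 85.8% of the wt/fl level and a log2 difference of −0.16. The table gives Myo19 the same position as Pigw and Znhit3 (chromosome 11 from 84689814 to 84729858), so fragments of these overlapping genes may not be fully separated. Pigw (4.30 and 5.36 FPKM) and Znhit3 (18.2 and 20.0 FPKM) were both higher in fl/fl, the direction opposite to that of Myo19. None of the other 9 members shares its position with another gene of the table.

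Of the 9 members whose mean reached 1 FPKM, 0 were past a log2 difference of 0.5, against a background of 3.45% of the 9866 genes (340 genes) in either direction, 1.27% on the higher side and 2.18% on the lower side. With 9 genes, a count of 0 is not set apart from that share. At a limit of 0.25, Myo1f alone was past it, on the higher side, beside 8.07% of all genes on that side, and 0 members were past it on the lower side, beside 9.2%. Higher values in fl/fl were seen for 4 of the 9 members and lower values for 5, with a median log2 difference of −0.0058. Over all genes the median was 0.0026, and 50.5% were higher in fl/fl.
The question behind this list is whether other motors make up for the missing myosin IIa. In absolute terms Myh9 differed by −29.5 FPKM. This value is for the whole gene, of which only the LoxP-flanked exon is deleted. Transcripts without that exon can be counted in it, so the loss of intact Myh9 RNA may be larger. The same limit holds for the shares and ratios to Myh9 given below. Protein and motor activity are not measured by these values. The 4 higher members (Myo1e, Myo5a, Myo1f and Myo1g) were higher by 8.96 FPKM in all, and the differences of the 6 lower ones, Myo1d included, summed to −6.42 FPKM. The 10 members therefore summed to 245 FPKM in wt/fl against 248 FPKM in fl/fl cells. This net difference of 2.55 FPKM corresponds to 8.62% of the difference in Myh9 FPKM. The sum was 101% of the wt/fl level, but the direction of so small a difference depended on the processing: with upper quartile scaling its log2 ratio was −0.00048, and with the highest entry of each gene in place of the sum it was −0.013.
Because Myh9 was lower and the other heavy chains were nearly level, their proportions shifted. Myh9 was 16.8% of the FPKM of the 27 heavy chain genes in wt/fl versus 7.69% in fl/fl cells, and went from place 3 to place 5. Myo1g went from 1.30 to 3.15 times the Myh9 level, Myo1e from 1.09 to 2.85 times, Myo1c from 0.977 to 2.09 times and Myo5a from 0.546 to 1.39 times. Since the spread between mice is unknown, neighbors in this order, such as Myh9 and Myo1c in wt/fl (50.6 and 49.5 FPKM) or Myo9a and Myo1f (7.13 and 7.30 FPKM in fl/fl), cannot be told apart.

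**Figure D2:**
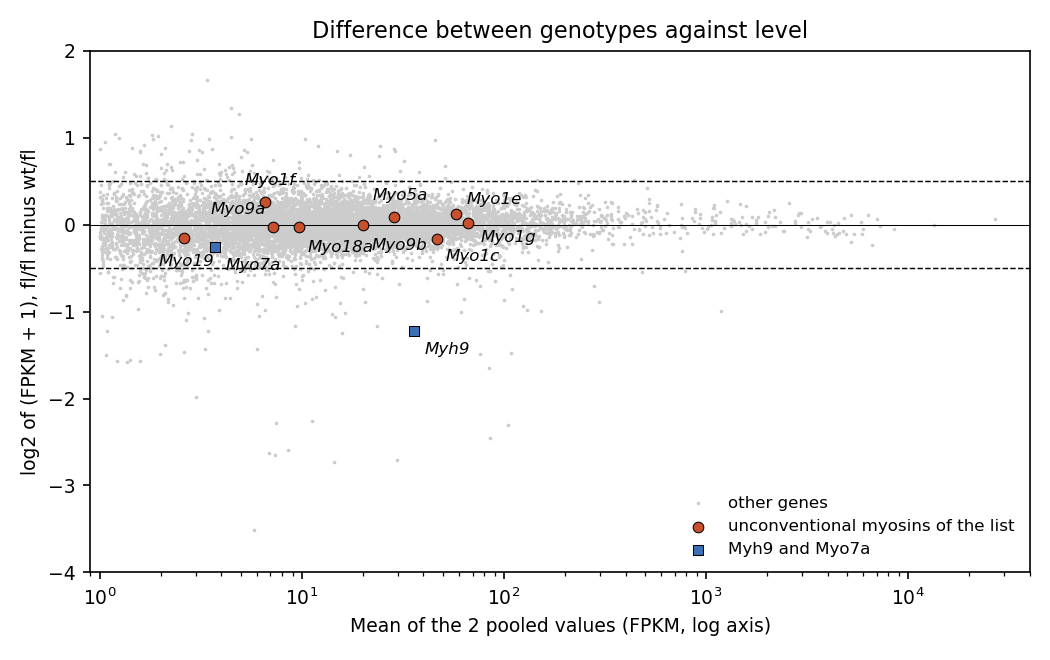
Difference between genotypes on the log2(FPKM + 1) scale against the mean of both pooled values in FPKM (log axis) for the 9866 genes whose mean reached 1 FPKM (gray). Dashed lines mark a log2 difference of 0.5 in either direction. The 9 listed myosins that met the minimum (red circles) lie between −0.16 and 0.27 within the gray cloud, whereas Myh9 (blue square) lies at −1.22. Myo7a is shown for comparison.

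Single entries varied more than the summed genes. Of 12 member entries whose mean reached 1 FPKM, 1 was past a log2 difference of 0.5, beside 8.27% of all 11411 such entries, and it was on the higher side, where 3.72% of all entries were. On the lower side 0 member entries were past 0.5, beside 4.56% of all. At 0.25 there were 4, beside 25.6% of all entries. These 4 were both entries of Myo1c, the lowest entry of Myo9b and the entry of Myo1f.
The larger entry of Myo1c had 41.7 FPKM in wt/fl compared with 31.8 FPKM in fl/fl cells, a log2 difference of −0.38. Its smaller entry had 7.84 FPKM in wt/fl against 12.4 FPKM in fl/fl cells, a log2 difference of 0.60 in the other direction. The larger entry thus made up 84.2% of Myo1c in wt/fl versus 72.0% in fl/fl. A shift of 12.2 percentage points is not rare in this table. Among 1226 genes with at least 2 entries above 1 FPKM, the share of the leading entry moved by 10 points or more in 29% and by as much as that of Myo1c or more in 22.8%, and 25.1% had entries past 0.25 in opposite directions, as Myo1c did.
Myo1c is made in forms that differ in where the protein begins. GENCODE M21 lists 3 different complete coding sequences for Myo1c, which start at separate positions and share the rest. Since these starts are what separates the forms, their first 30 coding bases are shown with the start codon in capitals (chromosome 11, plus strand, GRCm38).
Myo1c, 1028 residues (chr11:75657522-75657551): ATGgagagcgccttgactgcccgagaccgg
Myo1c, 1044 residues (chr11:75656184-75657503): ATGcgctaccgggcatcggccctgggcagt
Myo1c, 1063 residues (chr11:75650690-75650719): ATGgcactccaagtagaactgataccaacg
The form of 1044 residues adds 16 residues before the shared part and is known as nuclear myosin I, and the 30 bases printed for it span an intron. The form of 1063 residues adds 35 residues. The table has 2 entries for Myo1c and does not say which coding sequence each one stands for, so the opposite differences cannot be assigned to a form. The shared part is nearly the whole coding sequence, and few fragments can tell the forms apart.
Myo9b, which also has several coding sequences, showed a smaller shift. Its leading entry had 11.1 FPKM in wt/fl compared with 11.0 FPKM in fl/fl, the second had 6.19 and 7.15 FPKM, and the third had 2.84 and 1.91 FPKM. The share of the leading entry was 55.1% in wt/fl against 54.7% in fl/fl, and the second entry went from 30.8% to 35.7%. The other 8 members have 1 entry each, although GENCODE M21 lists 13 different complete coding sequences for Myo18a and 3 each for Myo5a and Myo9a.

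**Figure D3:**
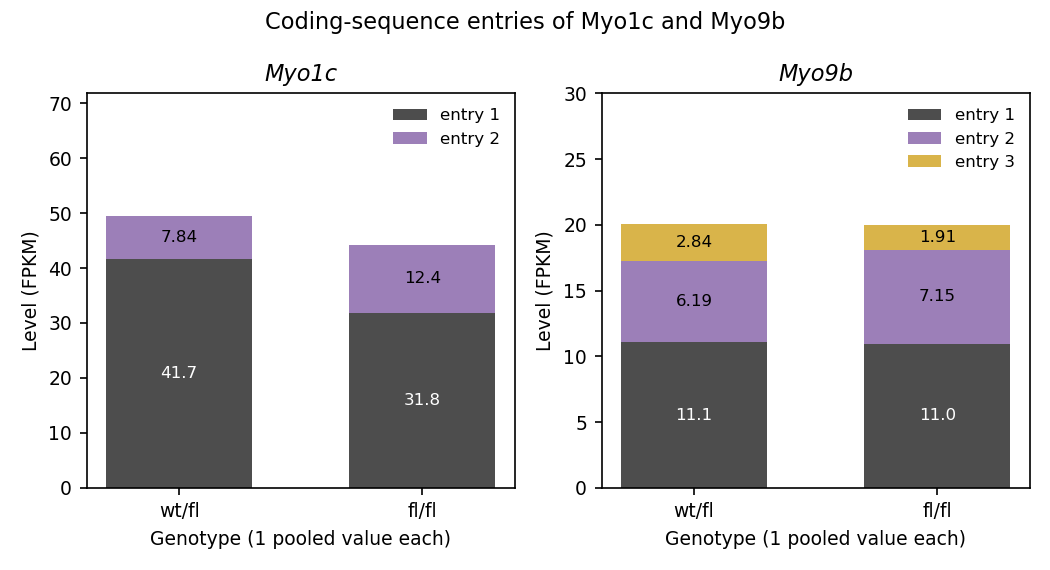
Level in FPKM (linear axis from 0) of the coding-sequence entries of Myo1c (left) and Myo9b (right), stacked per genotype with the value of each entry printed in its segment. Each genotype has 1 pooled value per entry and no error bar. The smaller Myo1c entry is higher in fl/fl (12.4 against 7.84 FPKM) while the larger one is lower (31.8 against 41.7 FPKM), and the Myo9b stacks are almost equal in height.

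The remaining unconventional myosins were scarce in follicular B cells. Of 14 such genes outside the list, only Myo7a had a mean of at least 1 FPKM. Myo7a, a motor of sensory hair bundles and the retina, had 4.16 FPKM in wt/fl versus 3.30 FPKM in fl/fl cells, a log2 difference of −0.26. The other genes were below 1 FPKM in both genotypes, with Myo10, the filopodial myosin, at 0.433 and 0.733 FPKM and Myo6, the motor that walks toward the pointed end of actin, at 0.374 and 0.446 FPKM. The highest of the rest was Myo5c at 0.318 and 0.320 FPKM, and Myo7b was listed at 0 in both. Neither other nonmuscle class II heavy chain approached the level of Myh9: Myh10 was at 0.297 and 0.262 FPKM and Myh14 at 0.0318 and 0.0129 FPKM.

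Light chains, which the unconventional myosins share with myosin II in part, had mostly the higher value in fl/fl cells. Of 10 listed genes, 7 reached a mean of 1 FPKM, and all 7 were higher in fl/fl as deposited. With upper quartile scaling 6 of 7 were higher, and Myl6 was at −0.0038 on the log2 scale. Over all genes, 50.5% were higher in fl/fl by any amount as deposited. None of the 7 was past a log2 difference of 0.5 in either direction, beside 3.45% of all genes. Their median was 0.15, beside 0.0026 for all genes. Calmodulin, the light chain of class I, V and IX myosins, is encoded among others by Calm2 (235 FPKM in wt/fl compared with 260 FPKM in fl/fl) and Calm3 (30.7 and 31.4 FPKM). The most abundant light chains were Myl12b, a regulatory light chain of myosin II (470 and 501 FPKM), and Myl6, the essential light chain (429 and 433 FPKM). Myl4 had the largest difference of the list, 14.8 FPKM in wt/fl against 19.1 FPKM in fl/fl, or 0.35 on the log2 scale.
Partners of the class I myosins were all measured above 1 FPKM, and 0 of 10 were past 0.5, beside 3.45% of all genes. With 10 genes, a count of 0 is not set apart from that share. Lsp1, an actin-binding protein of leukocytes that binds Myo1e, had 210 FPKM in wt/fl versus 222 FPKM in fl/fl. The endocytic adaptors Sh3kbp1 (82.8 and 90.8 FPKM) and Cd2ap (61.2 and 64.1 FPKM) came next. The list had a median log2 difference of 0.060.
Among partners of class V myosins, 1 of 10 was past 0.5. Rilpl2, which binds the cargo-binding tail of Myo5a, had 21.5 FPKM in wt/fl compared with 14.4 FPKM in fl/fl cells, a log2 difference of −0.54, beside 2.18% of all genes on the lower side of 0.5. Dynll1, a small light chain that Myo5a shares with dynein, had 101 and 85.9 FPKM. Of the Rab proteins that recruit myosin V to vesicles, the abundant Rab8a was at 66.8 and 63.9 FPKM and Rab10 at 61.3 and 64.6 FPKM. The less abundant Rab27a had 2.89 and 3.55 FPKM, a log2 difference of 0.23. The melanosome adaptor Mlph, at 0.145 and 0.282 FPKM, and Myrip, listed at 0 in both, were low or at 0.
In the RhoA pathway, which the class IX myosins inhibit, 1 of 9 genes was past 0.5, on the lower side, beside 2.18% of all genes there. Arhgap1, another GTPase-activating protein for small GTPases, had 4.31 FPKM in wt/fl against 0.922 FPKM in fl/fl cells, a log2 difference of −1.46, and both of its entries were lower. The abundant genes of the list were nearly level: Rhoa had 227 and 235 FPKM, Arhgef1 209 and 209 FPKM, and Arhgdib, a GDP-dissociation inhibitor of small GTPases, 1109 and 1226 FPKM. Rock2, a kinase that activates myosin II downstream of RhoA, had 49.2 FPKM in wt/fl versus 40.6 FPKM in fl/fl, a log2 difference of −0.27, whereas Rock1 had 46.8 and 49.1 FPKM.
For Myo18a and Myo19, 0 of 12 partners were past 0.5, beside 3.45% of all genes, from which a count of 0 in 12 is not set apart. The list median was 0.047. Pak2, a kinase that acts with the Myo18a-bound exchange factor Arhgef7, had 53.5 and 49.5 FPKM, Golph3, the Golgi protein that holds Myo18a, had 35.9 and 33.9 FPKM, and Git2 had 34.1 and 34.3 FPKM. The Miro GTPases Rhot1 (15.7 FPKM in wt/fl) and Rhot2 (15.8 FPKM in wt/fl), which recruit Myo19 to mitochondria, stood at 89.4% and 96.6% of that level in fl/fl cells.
Of the chaperones that take part in folding myosin motor domains, all 3 that reached a mean of 1 FPKM were lower in fl/fl. Over all genes, 50.5% were higher in fl/fl by any amount. Both scalings tried moved the values by too little to change the signs of these 3 genes. The 2 past 0.5, beside 2.18% of all genes on that side, were general HSP90 chaperones that are not specific for myosin. Hsp90aa1 had 387 FPKM in wt/fl compared with 208 FPKM in fl/fl cells (log2 difference −0.89), and Hsp90ab1 had 936 and 647 FPKM (log2 difference −0.53). Unc45a, the co-chaperone that is specific for myosin, had 10.9 and 8.89 FPKM, a log2 difference of −0.27. Its muscle counterpart Unc45b was listed at 0 in both genotypes.

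**Figure D4:**
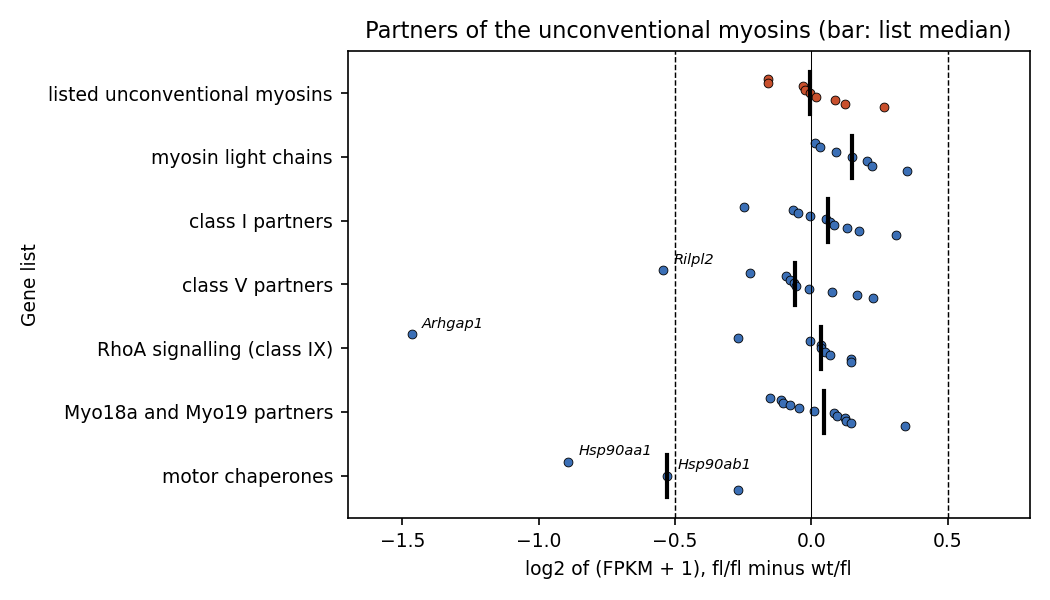
Difference between genotypes on the log2(FPKM + 1) scale for the listed unconventional myosins and for lists of their partners, 1 point per gene whose mean reached 1 FPKM. Thick bars are list medians and dashed lines mark 0.5 in either direction. Points past the dashed lines are named (Rilpl2, Arhgap1, Hsp90aa1 and Hsp90ab1), all on the lower side, and the median of the motor chaperones lies at −0.53.

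Some of these myosins are also made by other leukocytes, so markers of cells that a sort of follicular B cells could retain were set beside them. Of 7 neutrophil markers whose mean reached 1 FPKM, 7 were lower in fl/fl and 6 were past 0.5, beside 2.18% of all genes on that side. The summed level of the 11 neutrophil markers found in the table was 368 FPKM in wt/fl against 66.5 FPKM in fl/fl, led by S100a9 (175 and 34.5 FPKM), S100a8 (145 and 25.8 FPKM) and Camp (15.3 and 1.70 FPKM). The granule genes Elane (0.119 FPKM) and Mpo (0.0916 FPKM) were near 0 in wt/fl and listed at 0 in fl/fl. Myo1f, which neutrophils express, was higher in fl/fl. What share of its RNA came from neutrophils was not tested, and its direction alone cannot show it. The 12 macrophage and monocyte markers summed to 18.6 FPKM in wt/fl versus 16.7 FPKM in fl/fl, with Cd68 at 7.41 and 6.10 FPKM, C1qb at 1.61 and 2.39 FPKM, and C1qc at 1.60 and 2.04 FPKM. Of the 5 that reached a mean of 1 FPKM, 2 were higher and 3 lower, with the largest difference in Itgam (2.22 and 1.33 FPKM, log2 difference −0.47). The 11 T cell markers summed to 216 and 203 FPKM, of which Cd2, a gene that mouse B cells also express, accounted for 188 and 176 FPKM, followed by Lck (14.5 FPKM in both) and Lat (2.86 and 2.54 FPKM). The T cell receptor subunits Cd3d (3.02 and 2.31 FPKM) and Cd3g (1.96 and 1.26 FPKM) were lower in fl/fl, and Cd3e had 1.83 and 1.96 FPKM. The part of other cells in the values of the myosins was not tested. In bulk RNA, fewer cells of a type and less RNA per cell cannot be told apart.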

How the data were processed

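Follicular B cells of 3 CD23Cre+Myh9wt/fl and 3 CD23Cre+Myh9fl/fl samples were sequenced after RNA amplification, a method that does not keep the strand. Bowtie, TopHat and Cufflinks are named in the submitters' processing notes without versions. The notes name mm10 and GRCm38, but 118 entries lie on sequences named "random" and gene positions fit mm9, so positions in the table were read as mm9 and never converted. The authors deposited 1 table in the layout of Cuffdiff with FPKM per coding-sequence entry, pooled over the samples of each genotype. The table's columns of fold change, test statistic, p-value, q-value and significance hold the authors' own comparison and were not used. Depth per sample is unknown.

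From the deposited FPKM, entries were summed per gene name, after 44 entries whose names had turned into dates were set aside, and log2(FPKM + 1) was compared (Python 3.11.15, numpy 2.4.6, pandas 2.3.3, matplotlib 3.10.9). A gene needed a mean of 1 FPKM, and log2 differences of 0.5 and 0.25 were counted. The computation was tested on simulated data. The genes named were all members, Myh9, Myh10, Myh14 and other unconventional myosins above the minimum. In partner lists and in marker lists of other cell types they were the 3 highest genes, and any partner past 0.5. Others (Calm3, Myl4, Myo10, Myo6, Myo5c, Myo7b, Mlph, Myrip, Rock1, Rock2, Rhot1, Rhot2, Unc45b, Elane, Mpo, Itgam, Cd3d, Cd3e, Cd3g, Rab27a, Cd79a, Cr2, Pigw and Znhit3) were named after their values were seen. The members and lists were chosen with earlier results of these data known. Sums over a single class or tail type were not set out beforehand. Alternatives were other pseudocounts, minimums, thresholds and scalings, and the highest entry per gene.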

Additional observations from a re-analysis of the deposited data

How the results depend on the processing

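Of 179 values recomputed under alternatives, 158 stayed within 0.1 on the log2 scale or, for counts, within 1.5 times, and 21 did not. In 6 cases a value came to lie on the other side of 0 and in 1 case, the median of the class V partners with no minimum, it became 0. These 6 were the members' total (log2 ratio −0.00048 with upper quartile scaling and −0.013 with the highest entry), the members' median with a minimum of 5 FPKM (0.0052), and the medians of the Myo18a and Myo19 partners, the macrophage markers and the other unconventional myosins, whose values follow. Each member's summed log2 difference kept its sign under the pseudocounts, both scalings and the highest entry per gene. With the highest entry, Myo1c was at −0.38, and the median of the other unconventional myosins, which is Myo7a alone, was −0.11. The medians were then −0.060 for the Myo18a and Myo19 partners and 0.099 for macrophage markers. With a pseudocount of 0.1 FPKM, Myo1d was at −0.39, the neutrophil markers at −3.10, and 238 genes were higher and 346 lower past 0.5. With no minimum, the medians were 0.011 for the other unconventional myosins, −0.040 for the class II heavy chains, −0.40 for the chaperones and −1.57 for the neutrophil markers. With a minimum of 5 FPKM they were −2.59 for neutrophil and −0.24 for macrophage markers, and 49 genes were higher and 98 lower. At a threshold of 0.25, 1 member was higher, and of all genes 796 were higher and 908 lower. At a threshold of 1, 9 genes were higher and 40 lower, and at 0.5 these counts were 125 and 215. Counts at another threshold differ by definition, and the Myo1c value with the highest entry is that of its larger entry. A smaller pseudocount widens the log2 differences of genes near 0. Other causes of these shifts were not tested, apart from fewer or more genes entering. No paired analysis was possible because the table holds 1 pooled value per genotype, and for the same reason leaving out each replicate was not run. Depth is unknown, so members near 1 FPKM, such as Myo1d and Myo19, are the least certain.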
